A study of Mus musculus with 24 samples.

Results

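The proteasome genes described here are the mouse genes whose symbol is Psm followed by a letter from a to g and a number. They encode the 20S core particle (Psma and Psmb), the 19S regulatory particle with its assembly chaperones (Psmc and Psmd), the activators (Psme), the proteasome inhibitor-like protein PI31 (Psmf1) and the 20S assembly chaperones (Psmg). By this rule 44 of the 16572 gene names in the RNA-seq table were members, and 43 of them reached a mean of 1 RPM (reads scaled to the depth of a column, per 1e6) over the 2 conditions. The member under this limit was Psmb10. Psma8, Psmb8, Psmb9 and Psme1, which would also fit the rule, are not analysed here.

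The oocytes came from the ovaries of 7-day-old mice of the strain labelled C57BL/6 Barb, which were dissociated with trypsin and collagenase and cultured without follicles. IV 5% O2 oocytes were collected after 9 days with 5% oxygen and IV 20% O2 oocytes after 14 days with 20% oxygen, and neither group received the drugs used elsewhere in the study. Both groups are class IV, the largest size class, labelled 60 to 70 µm, although the methods of the study give a smaller range for IV 20% O2 and describe the mice as a cross with an SV129 background. Oocytes were pooled, and the cultures also held theca-like cells that supported the oocytes at first. Oxygen and days of culture changed together, and by the methods of the study the medium was also renewed more often with 5% oxygen. These differences cannot be told apart. Whether the libraries of both groups were prepared together is not given in the sources used here.

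Each condition had 2 RNA-seq libraries, and the deposited table holds 1 pooled column per condition. The libraries of a condition cannot be compared with each other, so no SD and no p-value is given. The columns correspond to 132185258 reads for IV 5% O2 and 40875359 reads for IV 20% O2, so that a count of 0 allows up to 0.0227 RPM and 0.0734 RPM (3 reads). Differences are log2(RPM + 1) in IV 5% O2 minus that in IV 20% O2, a scale on which the change of low genes comes out too small. The interval after a difference is the exact 95% Clopper-Pearson interval of the read ratio without the pseudocount. It covers counting error only and compares these libraries, not the conditions. All 12 oocyte markers had reads in both columns, at 120 RPM or more, and summed to 10148 RPM in IV 5% O2 against 13970 RPM in IV 20% O2, 5 of 12 being higher in IV 5% O2. The sum of 8 theca and stroma markers was 38.4 RPM in IV 5% O2 against 4.97 RPM in IV 20% O2, 8 of 8 being higher in IV 5% O2, with Col1a2, Vim and Dcn at 0 in IV 20% O2. For 5 granulosa markers the sums were 38.7 and 29.0 RPM (4 of 5 higher in IV 5% O2, Fshr at 0 in IV 5% O2, Inha at 0 in IV 20% O2), for 3 macrophage markers 17.9 and 21.1 RPM (2 of 3 higher in IV 5% O2, Lyz2 at 0 in IV 20% O2) and for 4 endothelial markers 117 and 284 RPM (3 of 4 higher in IV 5% O2 although the sum was lower, Kdr at 0 in IV 20% O2). The 5 erythroid markers are not analysed here. The part of such cells in the values below was not tested, and in pooled RNA fewer cells of a type and less RNA per cell cannot be told apart.

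The proteasome degrades proteins that carry chains of ubiquitin. Its 20S core is a barrel of outer alpha rings, which gate the entrance, and inner beta rings, in which Psmb5, Psmb6 and Psmb7 provide the cutting sites. The 19S particle caps the barrel, recognises ubiquitin, removes it and unfolds the substrate with a ring of ATPases. In oocytes, proteasomes degrade cell cycle proteins such as cyclin B during meiosis and, after fertilisation, proteins stored by the mother.

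Proteasome genes are known to be controlled together by the transcription factor Nrf1 (Nfe2l1), which binds antioxidant response elements, and many promoters bind NF-Y at CCAAT. The promoters of the members with the highest differences and of the catalytic subunits Psmb5 and Psmb6 are shown here so that these letters can be looked for. Psmb6 had a difference of -0.82, while Psmb5 at 0.31 lay near the median of all genes (0.26). The sequences are the 250 bases before the transcription start in RefSeq (GRCm38.p6), written 5′ to 3′ on the strand of the gene. Capitals mark a match to TGACNNNGC, the core of the antioxidant response element, or to CCAAT, each searched on both strands.
Psmc4 (chr7:28050093-28050342, minus strand): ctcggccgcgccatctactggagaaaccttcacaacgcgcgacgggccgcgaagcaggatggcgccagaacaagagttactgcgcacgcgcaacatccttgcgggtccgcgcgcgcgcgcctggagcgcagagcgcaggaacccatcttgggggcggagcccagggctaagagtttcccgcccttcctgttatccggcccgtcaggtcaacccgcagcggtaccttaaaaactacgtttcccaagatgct
Psmd4 (chr3:95042615-95042864, minus strand): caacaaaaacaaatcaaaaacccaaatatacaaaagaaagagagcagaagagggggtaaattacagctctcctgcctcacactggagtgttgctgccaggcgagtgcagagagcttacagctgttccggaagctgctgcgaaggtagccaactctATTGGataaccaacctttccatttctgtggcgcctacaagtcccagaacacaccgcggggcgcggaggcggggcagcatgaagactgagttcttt
Psmb5 (chr14:54617996-54618245, minus strand): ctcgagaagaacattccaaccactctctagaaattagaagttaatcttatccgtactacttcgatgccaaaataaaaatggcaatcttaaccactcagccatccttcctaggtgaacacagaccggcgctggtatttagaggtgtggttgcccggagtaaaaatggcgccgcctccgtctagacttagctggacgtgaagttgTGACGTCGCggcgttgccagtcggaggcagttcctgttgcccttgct
Psmb6 (chr11:70525107-70525356, plus strand): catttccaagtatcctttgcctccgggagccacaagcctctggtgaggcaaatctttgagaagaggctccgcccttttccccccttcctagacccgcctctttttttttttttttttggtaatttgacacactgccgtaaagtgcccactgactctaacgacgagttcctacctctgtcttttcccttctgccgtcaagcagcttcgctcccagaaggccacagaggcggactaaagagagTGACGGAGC

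Psmc4 and Psmd4, the members with the highest differences, had no match to TGACNNNGC in these windows. Psmd4 had CCAAT on the opposite strand, 95 to 91 bases before the start. Psmb5 had TGACNNNGC 47 to 39 bases before the start and Psmb6 had it 9 to 1 bases before the start. Of the 44 members, 37 were found in the RefSeq promoter table, with 40 windows. TGACNNNGC was in 5 of the 40 windows (12.5%), those of Psmb5, Psmb6, Psmc6, Psmd9 and Psmd12, and in 10.2% of all 32851 promoters of this length. CCAAT was in 13 of the 40 (32.5%) and in 33.8% of all promoters. The members with TGACNNNGC included Psmd9, whose difference was 0.96, and Psmb6, whose difference was -0.82, so they did not share a direction. These matches are letters and not measured binding sites.

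As a family, the proteasome genes were expressed at high levels in both columns and were more often higher in IV 5% O2. Per kb of annotated exon, the median member was at 30.5 RPM in IV 5% O2 against 27.2 RPM in IV 20% O2, above 89.2% and 89.5% of 14692 genes, whose medians were 4.71 and 4.20 RPM per kb. Summed over the 44 members the reads were 4658 RPM in IV 5% O2 against 3421 RPM in IV 20% O2, a log2 ratio of 0.445 (interval 0.437 to 0.453). Of the 43 members tested, 35 were above 0 (81.4%, against 62.6% of the 14704 genes tested) and 8 were below. The median difference was 0.50 for the members and 0.26 for all genes, so the median member was 0.24 above the median gene, and 29 members lay above the median gene and 14 below it. With median-ratio scaling, quantile normalization or scaling to the reads counted on genes, the median of all genes moved to -0.04, 0.06 or 0.10. Above 0 were then 27 to 29 members, in place of 35. The share of all genes above 0 was not counted under these scalings. The number of members above the median gene was 28 or 29 with them, against 29 as deposited.

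Few members differed by a factor of 2. At least 2-fold higher in IV 5% O2 were 3 members (6.98%), Psmc4, Psmd4 and Psmd3, against 18.7% of all genes tested. At least 2-fold lower was 1 member (2.33%), Psmg4, against 9.22% of all genes. With median-ratio scaling the counts became 1 member higher (Psmc4) and 3 lower (Psmg4, Psmb6 and Psmb3), against 11.6% of all genes higher and 13.9% lower. With quantile normalization they were 2 higher and 1 lower, against 12.0% and 12.7% of all genes, and with scaling to the reads counted on genes 2 higher and 2 lower, against 15.8% and 12.2%. Among all genes at least 2-fold apart, 67.0% were higher in IV 5% O2 as deposited, and 45.6%, 48.6% and 56.5% with median-ratio, quantile and on-gene scaling. The interquartile range of the differences was 0.589 for the members and 1.13 for all genes. Most of all genes had lower levels than the median member, and a set of genes of like level was not compared. The order of the members was similar in the columns, with a Spearman's rho of 0.842 of the level per kb over 44 members, and 0.868 over all genes. These genes share the libraries and are not independent replicates.

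**Figure D1:**
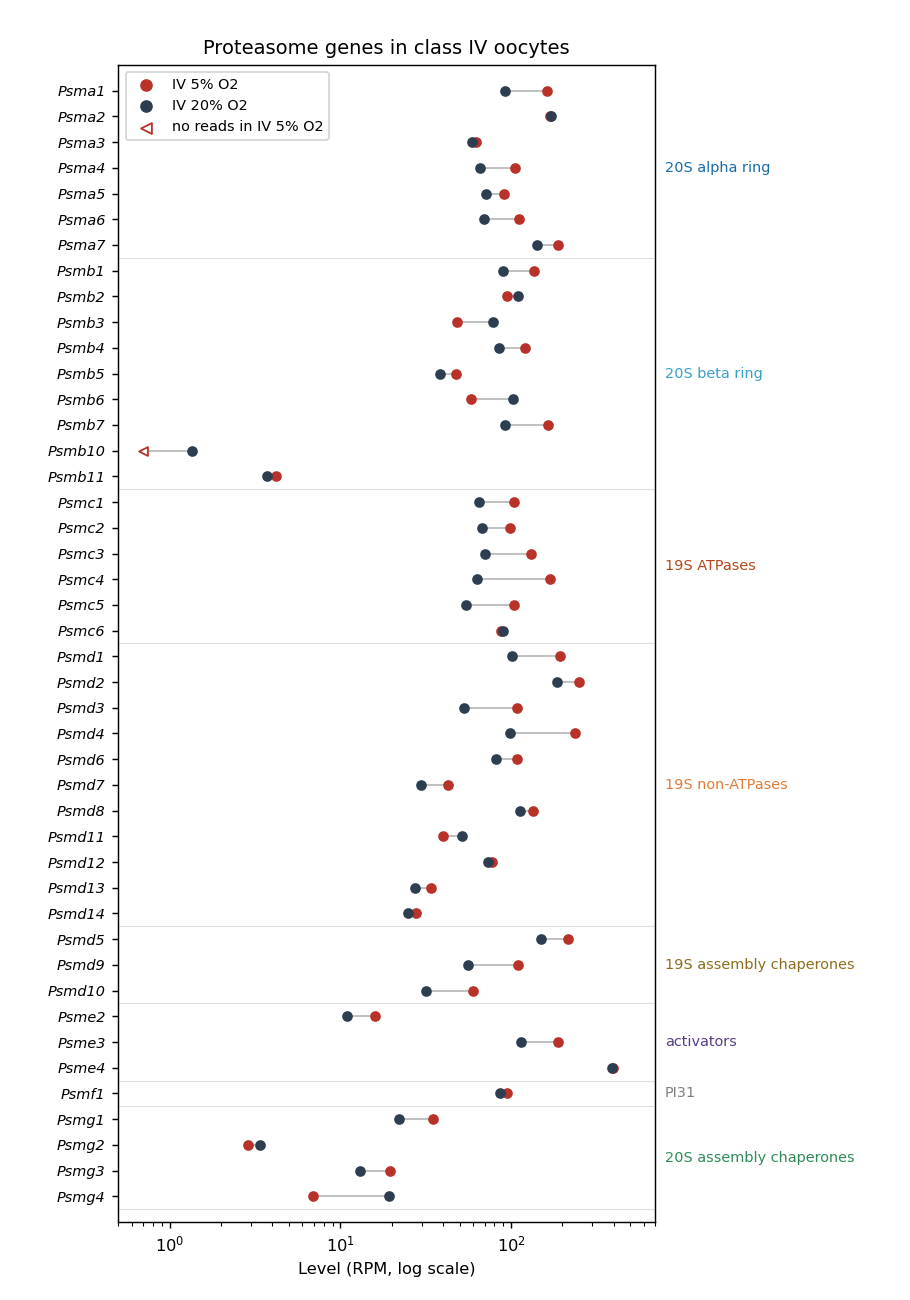
Level of each of the 44 proteasome genes in RPM (log scale) in IV 5% O2 (red) and IV 20% O2 (dark blue), with a line joining the values of a gene and the genes grouped by their place in the proteasome. Most red points lie to the right of their dark blue partner, while Psmb2, Psmb3, Psmb6, Psmd11 and Psmg4 lie clearly the other way, and the open triangle marks Psmb10, which had 0 reads in IV 5% O2.

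The 7 genes of the alpha ring, which forms the gate of the barrel, were together slightly above the median gene. Their median difference was 0.41, or 0.15 relative to the median gene, and 5 of 7 lay above it. Psma1 had 164 RPM in IV 5% O2 against 92.0 RPM in IV 20% O2, the highest alpha difference at 0.82 (interval 0.78 to 0.88). Psma4 was close behind at 0.69, and Psma6 had 112 and 69.6 RPM, a difference of 0.68 (interval 0.63 to 0.75). Psma2 had 170 and 172 RPM, a difference of -0.02 whose interval of -0.06 to 0.02 includes 0. Psma3 had 62.2 and 58.8 RPM, a difference of 0.08 (interval 0.02 to 0.15). The sign of Psma3 changed with median-ratio, quantile and on-gene scaling, to -0.23, -0.11 and -0.11. Psma7, the subunit whose place the germ cell form Psma8 takes in testis, had 188 and 141 RPM, a difference of 0.41 (interval 0.37 to 0.46). The alpha genes thus ranged from near equal RPM in the columns (Psma2, Psma3) to a difference of 0.82 (Psma1). At Psma4 and Psma5, 10.4% and 10.2% of the exonic windows as long as a read occur elsewhere in the genome, so reads could be shared there.

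The genes of the beta ring, which holds the cutting sites, lay above 0 about as often as all genes. Of the 8 tested, 5 were above 0 (62.5%, against 62.6% of all genes tested) and 3 below. Their median of 0.23 was 0.03 below the median gene (-0.03). The range ran from -0.82 for Psmb6 to 0.83 for Psmb7. With a minimum of 5 RPM, which leaves out Psmb11, the median lay above that of all genes (0.0836).

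The catalytic subunits went different ways. Psmb7, the trypsin-like subunit (chromosome 2, 38588036 to 38644087), had 165 RPM in IV 5% O2 against 92.1 RPM in IV 20% O2, a difference of 0.83 (interval 0.79 to 0.89). Psmb6, the caspase-like subunit (chromosome 11, 70525367 to 70527858), had 58.0 and 103 RPM, a difference of -0.82 (interval -0.88 to -0.77). Psmb5, the chymotrypsin-like subunit (chromosome 14, 54614119 to 54618022), had 47.6 and 38.1 RPM, a difference of 0.31 (interval 0.24 to 0.40). Psmb6 was thus lower in IV 5% O2, and Psmb7 and Psmb5 were higher. Psmb7 had 2.84 reads for each read of Psmb6 in IV 5% O2 and 0.896 in IV 20% O2, a 3.17-fold change of the ratio (Woolf interval 3.01 to 3.34). Between Psmb5 and Psmb6 the ratio was 0.822 and 0.371, a 2.21-fold change (interval 2.07 to 2.37). Between Psmb7 and Psmb5 it was 3.46 and 2.42, a 1.43-fold change (interval 1.34 to 1.53). A change of such a ratio depends neither on gene length nor on the factor applied to a column. At Psmb7, 11.8% of the exonic bases overlap Nek6 on the other strand, and at Psmb5 26.2% of the windows are repeated elsewhere and 12.1% of the bases overlap Mir686. The libraries kept the strand, but whether the counting used it is not given in the sources used here.

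Among the beta subunits without a cutting site, Psmb3 and Psmb2 were also lower in IV 5% O2. Psmb3 had 48.5 RPM in IV 5% O2 against 78.7 RPM in IV 20% O2, a difference of -0.69 (interval -0.76 to -0.64). Psmb2 had 94.3 and 110 RPM, a difference of -0.22 (interval -0.27 to -0.17). Psmb1 and Psmb4 went the other way, Psmb1 with 137 and 89.5 RPM, a difference of 0.61 (interval 0.56 to 0.67), and Psmb4 at 0.50. The signs of Psmb2, Psmb3, Psmb6 and Psmb7 were the same under each scaling run, and that of Psmb5 was too, although its difference came to 0.000818 with median-ratio scaling.

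Of the inducible and tissue-restricted beta subunits, Psmb10 and Psmb11 had values, and both had few reads. Psmb10, the interferon-induced partner that replaces Psmb7 in the immunoproteasome (chromosome 8, 105935735 to 105938444), had 0 reads in IV 5% O2 and 55 reads, or 1.35 RPM, in IV 20% O2. With the 55 reads taken as they are and the 3 reads that a count of 0 allows, it was at least 59.3-fold lower in the more deeply sequenced IV 5% O2 column. The exact interval, which also covers the counting error of the 55 reads, is wider and ends at -5.54 on the log2 scale. Per length, Psmb10 was at 2.93% of Psmb7 in IV 20% O2 (interval 2.20% to 3.82%) over all annotated exons, and at 1.29% over the principal transcripts. Psmb11, the subunit of the thymus cortex that takes the place of Psmb5, had 4.22 RPM (558 reads) in IV 5% O2 and 3.74 RPM (153 reads) in IV 20% O2. Its difference of 0.14 had an interval of -0.09 to 0.44, so a difference was not detectable at this depth. Psmb11 was at 1.66% of the level of Psmb5 per length in IV 5% O2 and at 1.84% in IV 20% O2.

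The genes of the regulatory particle had more reads in IV 5% O2, by more than the shift of all genes, in these libraries. Its 20 genes summed to 2332 RPM in IV 5% O2 against 1489 RPM in IV 20% O2, a log2 ratio of 0.648 (interval 0.635 to 0.660). The 16 core genes summed to 1569 and 1272 RPM, a log2 ratio of 0.303 (interval 0.290 to 0.317). The core sums turned to -0.0163 with median-ratio scaling, while the regulatory sums stayed above 0 at 0.33. There were 1.49 regulatory reads for each core read in IV 5% O2 and 1.17 in IV 20% O2, a 1.27-fold change of the ratio (Woolf interval 1.25 to 1.29). By medians, the regulatory genes were at 0.53 and the tested core genes at 0.35, with 16 of 20 and 9 of 15 above the median gene. The spread within each, from -0.37 to 1.40 and from -0.82 to 0.83, was larger than the gap between these medians.

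The ATPases, which form the ring that unfolds substrates, had a median of 0.78, or 0.52 relative to the median gene, and 5 of 6 lay above it. Psmc4 (Rpt3, chromosome 7, 28041707 to 28050101) had 169 RPM in IV 5% O2 against 63.1 RPM in IV 20% O2. Its difference of 1.40 (interval 1.36 to 1.48) was the highest of all members and lay at percentile 90.9 of the genes tested. Psmc5 (Rpt6) had 105 and 54.3 RPM, a difference of 0.93 (interval 0.88 to 1.01), and Psmc3 and Psmc1 followed at 0.89 and 0.67. Psmc2 (Rpt1) had 98.0 and 67.5 RPM, a difference of 0.53 (interval 0.48 to 0.60). Psmc6 (Rpt4) stood apart from the other ATPases with 87.8 RPM in IV 5% O2 against 89.8 RPM in IV 20% O2. Its difference of -0.03 had an interval of -0.09 to 0.02. The ratio of Psmc4 to Psmc6 reads was 1.92 in IV 5% O2 and 0.703 in IV 20% O2, a 2.73-fold change (Woolf interval 2.59 to 2.89).

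The 11 non-ATPase subunits had a median of 0.39, or 0.13 relative to the median gene, with 8 of 11 above it. Psmd4 (Rpn10, chromosome 3, 95032694 to 95042614), a receptor for ubiquitin chains, had 237 RPM in IV 5% O2 against 99.2 RPM in IV 20% O2. Its difference was 1.25 (interval 1.21 to 1.30). Psmd3 (Rpn3, chromosome 11, 98682554 to 98695979), a subunit of the lid, had 108 and 53.1 RPM, a difference of 1.01 (interval 0.96 to 1.09). Both were below 2-fold with median-ratio scaling, at 0.93 and 0.70, and Psmd3 was also below it with a pseudocount of 5 RPM, quantile normalization and on-gene scaling, at 0.96, 0.83 and 0.83. Psmd11 (Rpn6), which clamps the lid to the core, had the lowest difference among the Psmc genes and the Psmd genes of the particle. It had 39.7 RPM in IV 5% O2 against 51.8 RPM in IV 20% O2, a difference of -0.37 (interval -0.46 to -0.31). Psmd14 (Rpn11), the deubiquitinase that removes the chain as the substrate enters, had 27.9 and 24.9 RPM, a difference of 0.15 (interval 0.06 to 0.26) that turned to -0.15 with median-ratio scaling. The other non-ATPases lay between 0.08 (Psmd12) and 0.93 (Psmd1). Psmd2 (Rpn1) had 250.2 RPM in IV 5% O2 against 186 RPM in IV 20% O2, a difference of 0.42 (interval 0.39 to 0.46). Psmd13 (Rpn9) had 33.8 and 27.3 RPM, a difference of 0.30 (interval 0.21 to 0.40) that turned to -0.01 with median-ratio scaling. It shares 10.1% of its exonic bases with Sirt3 on the other strand.

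Split by structure, a grouping made after the values were seen, the base next to the core had higher differences than the lid. The 9 members of the base (the ATPases with Psmd1, Psmd2 and Psmd4) had a median of 0.89 and 8 of 9 lay above the median gene. The 8 members of the lid had a median of 0.28, close to that of all genes, and 5 of 8 lay above the median gene. The ratio of base to lid reads was 2.40 in IV 5% O2 and 1.75 in IV 20% O2, a 1.37-fold change (Woolf interval 1.34 to 1.40). The groups overlap, since Psmd3 of the lid lay above 7 of the 9 members of the base.

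**Figure D2:**
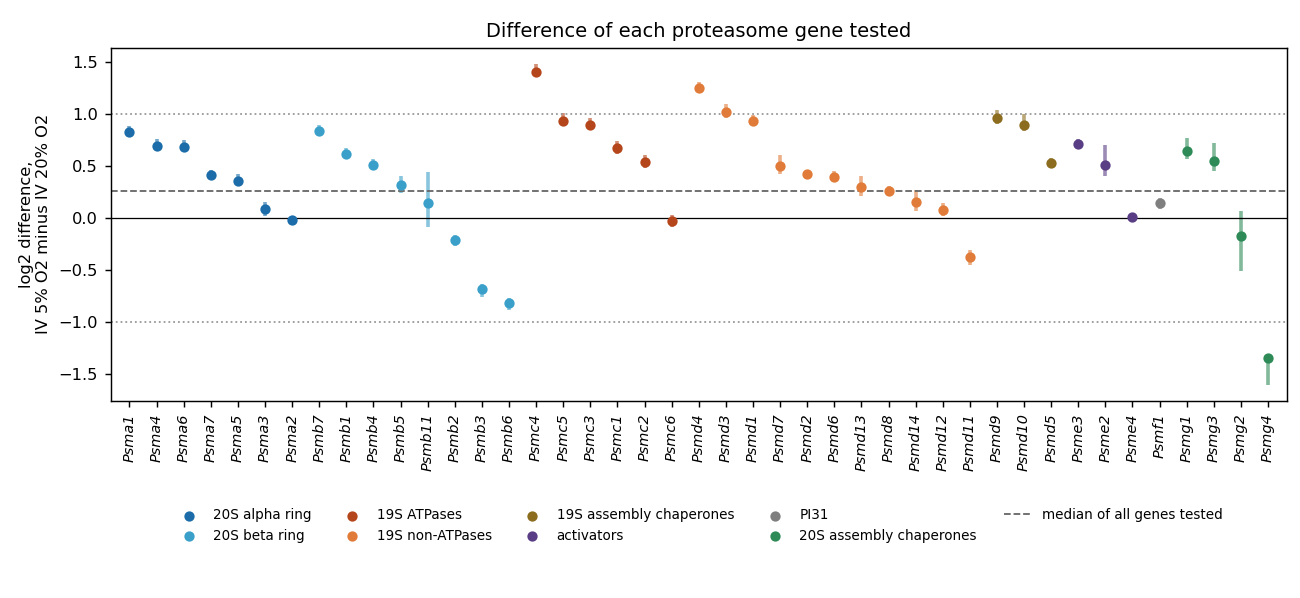
Difference on the log2(RPM + 1) scale (IV 5% O2 minus IV 20% O2) of the 43 proteasome genes tested, coloured by class and ordered within it, with bars for the exact 95% interval of the read ratio (counting error only), a dashed line at the median of all genes tested (0.26) and dotted lines at 2-fold. The ATPases other than Psmc6 lie above the dashed line, the beta ring spreads from Psmb7 at 0.83 to Psmb6 at -0.82, and Psmg4 is the 1 point under the lower dotted line.

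The 3 assembly chaperones of the regulatory particle, which hold ATPases together before the base is complete, were all above the median gene. Psmd9 had 110 RPM in IV 5% O2 against 56.1 RPM in IV 20% O2, a difference of 0.96 (interval 0.90 to 1.03). Psmd10 (gankyrin), the chaperone that binds Psmc4, had 59.6 and 31.6 RPM, a difference of 0.89 (interval 0.83 to 1.00). Psmd5 had 217 and 150 RPM, a difference of 0.53 (interval 0.49 to 0.57). Their median of 0.89 was thus on the side of the ATPases. At Psmd9, 25.5% of the exonic bases overlap the RNA Gm26745 on the other strand.

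The assembly chaperones of the core did not move as 1 group. Psmg1 and Psmg2 pair with each other and guide the alpha ring, as do Psmg3 and Psmg4. Psmg1 had 35.0 RPM in IV 5% O2 against 22.1 RPM in IV 20% O2, a difference of 0.64 (interval 0.56 to 0.77). Psmg2 had 2.88 RPM (381 reads) and 3.38 RPM (138 reads), a difference of -0.17 with an interval of -0.51 to 0.06. Psmg3 had 19.5 and 13.0 RPM, a difference of 0.55 (interval 0.45 to 0.72). In each pair 1 partner was above the median gene and the other below it. Psmg4 (chromosome 13, 34162964 to 34178173) was the member with the lowest difference among those tested, with 6.95 RPM (919 reads) in IV 5% O2 and 19.2 RPM (783 reads) in IV 20% O2. Its difference was -1.34 (interval -1.60 to -1.32), at percentile 5.70 of all genes tested, and it stayed at least 2-fold lower under each scaling run. Psmg4 has 555 bases of annotated exon, the shortest of the members. The 5 members with at most 1000 bases in their longest transcript (Psmb2, Psmb5, Psmb6, Psme2 and Psmg4) had a median of -0.22, against -0.03 for 1226 genes of that length. Across the 43 members, the Spearman's rho of the difference with this length was 0.09, and with GC content it was 0.209. At Psmg3, 9.68% of the exonic bases overlap Gm26938 on the same strand.

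The activators bind the ends of the core in place of the 19S particle. Psme3 (PA28 gamma), the nuclear activator, had 187 RPM in IV 5% O2 against 114 RPM in IV 20% O2, a difference of 0.71 (interval 0.67 to 0.76). Psme4 (PA200) is the activator linked to the degradation of histones in male germ cells. It had the highest RPM of all members in both columns, with 394 and 392 RPM. RPM is not corrected for length, and per kb of annotated exon Psme4 was at 47.0 and 46.8 RPM. Its difference was 0.01 (interval -0.02 to 0.03), which turned to -0.31 with median-ratio scaling. Psme2 (PA28 beta), the interferon-induced subunit that pairs with Psme1, had 16.1 and 10.98 RPM, a difference of 0.51 (interval 0.40 to 0.70). Psme2 and Psme3 thus lay above the median gene and Psme4 below it. The ratio of Psme3 to Psme4 reads was 0.475 in IV 5% O2 and 0.292 in IV 20% O2, a 1.63-fold change (Woolf interval 1.57 to 1.69). The 3 activators summed to 598 and 517 RPM, a log2 ratio of 0.208 (interval 0.186 to 0.230) that turned to -0.11 with median-ratio scaling. Psmf1, which encodes the core-binding protein PI31, had 94.7 and 86.0 RPM, a difference of 0.14 (interval 0.08 to 0.19) that turned to -0.18 with the same scaling.

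Levels can be compared between genes only per length, and the choice of transcript mattered. Within the core particle each alpha and beta subunit is present in equal number, as is each ATPase within its ring. Over all annotated exons, the 14 constitutive core genes covered a 5.69-fold range in IV 5% O2, from Psma3 at 16.0 to Psma6 at 90.9 RPM per kb. In IV 20% O2 they covered a 6.03-fold range, from Psma3 at 15.1 to Psmb2 at 91.0 RPM per kb. With the principal transcript of each gene, the range in IV 5% O2 was 9.43-fold, from Psma3 to Psma7. Psma3 was the lowest of the core genes in both columns with each length used.

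The levels of the ATPase genes covered a narrower range in IV 20% O2 than in IV 5% O2 with each of the 3 lengths, but the size of the range depended on the length. Over the principal transcripts, a length chosen after the data were seen, they lay between 37.8 (Psmc2) and 43.8 (Psmc4) RPM per kb in IV 20% O2, a 1.16-fold range. In IV 5% O2 they lay between 39.3 (Psmc6) and 117 (Psmc4) RPM per kb, a 2.98-fold range. Over all annotated exons, the ranges were 2.90-fold in IV 20% O2 and 4.003-fold in IV 5% O2, with Psmc2 lowest in both. Over the longest transcripts they were 2.10-fold and 3.17-fold. Among the non-ATPases, Psmd4 was highest in IV 5% O2 at 84.3 RPM per kb of annotated exon and Psmd11 lowest at 6.22, a 13.5-fold range. Both kept these places with the other lengths, but the range was 8.36-fold over the longest and 12.7-fold over the principal transcripts. In IV 20% O2, Psmd2 at 46.1 and Psmd13 at 8.09 RPM per kb were 5.70-fold apart, while over the principal transcripts Psmd4 was the highest at 74.5.

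Among the 19S chaperones the order depended on the length. Per kb of annotated exon, Psmd10 was the highest and Psmd9 the lowest in both columns, at 40.6 and 15.1 RPM per kb in IV 5% O2, a 2.68-fold range. Over the longest and the principal transcripts Psmd5 was the highest in both columns, at 49.3 RPM per kb in IV 5% O2 against 34.1 in IV 20% O2, and the range in IV 5% O2 was 1.18-fold. The highest and lowest genes of the other classes below were the same with each length, and their levels are given per kb of annotated exon. Psmg1 was the highest 20S chaperone in IV 5% O2 at 26.1 RPM per kb and Psmg4 the highest in IV 20% O2 at 34.5 RPM per kb. Psmg2 was the lowest in both, at 1.66 and 1.94 RPM per kb. Of the activators, Psme3 was highest in IV 5% O2 at 63.5 and Psme4 in IV 20% O2 at 46.8 RPM per kb, and Psme2 was the lowest in both, at 9.10 and 6.23 RPM per kb.

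**Figure D3:**
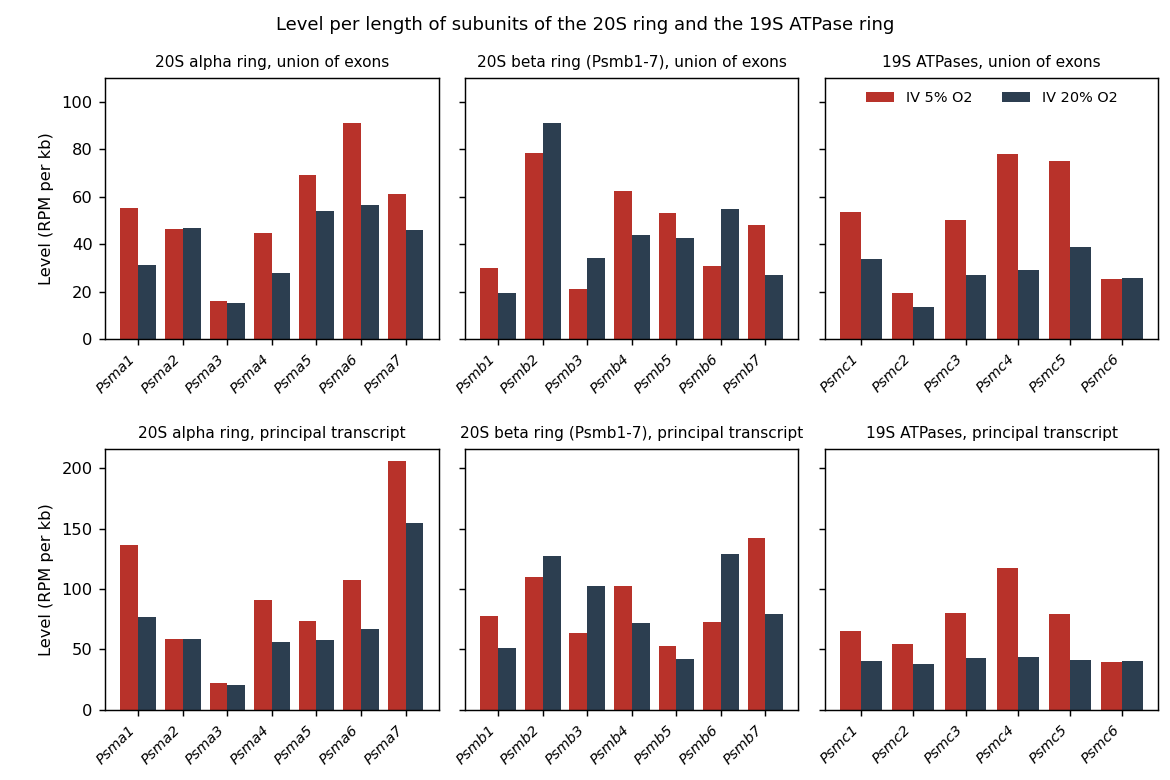
Level in RPM per kb of the constitutive alpha and beta subunits and of the 19S ATPases in IV 5% O2 (red) and IV 20% O2 (dark blue), per kb of all annotated exons (upper row) and of the principal transcript (lower row), with no error bars because each bar is 1 pooled column. In the lower right panel the dark blue bars lie between 37.8 and 43.8 RPM per kb, while the red bars run from 39.3 to 117.

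Other genes that work with the proteasome lay on both sides of 0. Of 27 genes, 26 had values and were tested (Paaf1 is not analysed here). Of these, 14 were above 0 (53.8%, against 62.6% of all genes tested) and 12 below. At least 2-fold higher in IV 5% O2 were 2 (7.69%, against 18.7% of all genes) and at least 2-fold lower were 2 (7.69%, against 9.22%). With median-ratio, quantile or on-gene scaling these counts became 0 higher and 4 lower (15.4%, against 13.9%, 12.7% and 12.2% of all genes), so that neither Ddi2 nor Rad23b stayed 2-fold higher. Their median difference was 0.11, or 0.15 below the median gene (-0.15), and 11 of 26 lay above that gene.

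The 3 genes listed as regulators of proteasome transcription, Nfe2l1 and those of enzymes that process its protein, were all above the median gene. Nfe2l1, the transcription factor Nrf1 that is made as an inactive protein of the endoplasmic reticulum, had 171 RPM in IV 5% O2 against 106 RPM in IV 20% O2, a difference of 0.69 (interval 0.65 to 0.74). Ddi2, the protease that cleaves Nrf1 to its active form, had 519 and 245 RPM, a difference of 1.08 (interval 1.05 to 1.11). Ngly1, which removes the sugar chains of Nrf1, had 94.3 and 67.2 RPM, a difference of 0.48 (interval 0.43 to 0.55). These values are levels of RNA and do not measure Nrf1 cleavage.

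The proteasome-associated genes were mostly on the other side, with a median of -0.13 and 2 of 11 above the median gene. Adrm1 (Rpn13), a ubiquitin receptor of the base, had 122 RPM in IV 5% O2 against 62.2 RPM in IV 20% O2, a difference of 0.97 (interval 0.92 to 1.04). Sem1, the smallest subunit of the lid, had 14.9 and 90.4 RPM, a difference of -2.52 (interval -2.68 to -2.52). Pomp, a chaperone of beta ring assembly, had 25.2 and 26.6 RPM, a difference of -0.07 (interval -0.18 to 0.02). Adrm1 and Sem1, which are parts of the 19S particle without a Psm symbol, thus differed in opposite directions.

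Of the genes that deliver substrates, Rad23b, a shuttle for ubiquitinated proteins, had 303 RPM in IV 5% O2 against 143 RPM in IV 20% O2, a difference of 1.07 (interval 1.04 to 1.12). Vcp, which pulls ubiquitinated proteins out of complexes and membranes, had 96.4 RPM in IV 5% O2 against 180 RPM in IV 20% O2, a difference of -0.89 (interval -0.94 to -0.86). Ubqln2, another shuttle, had 31.1 and 61.5 RPM, a difference of -0.96 (interval -1.05 to -0.91). Both were at least 2-fold lower with each of the 3 other scalings, and both are named here because of that. The 8 genes of this group had a median of 0.25, and 4 of 8 lay above the median gene.

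Among 4 genes of ubiquitin and its activation, 2 lay above the median gene and 2 below it. Rps27a, a fusion of ubiquitin to a ribosomal protein, had 20.8 RPM in IV 5% O2 against 93.5 RPM in IV 20% O2, a difference of -2.12 (interval -2.24 to -2.10). It was at least 2-fold lower in IV 5% O2 under each scaling run, while Ubb, which encodes a chain of ubiquitin repeats, had 1188 and 693 RPM, a difference of 0.78 (interval 0.76 to 0.79). Rps27a is short, with at most 1000 bases in its longest transcript, and the 1226 genes tested of that length had a median of -0.03. Overlaps and repeats were searched for the members only, so reads shared with other loci were not checked at these 4 genes.

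**Figure D4:**
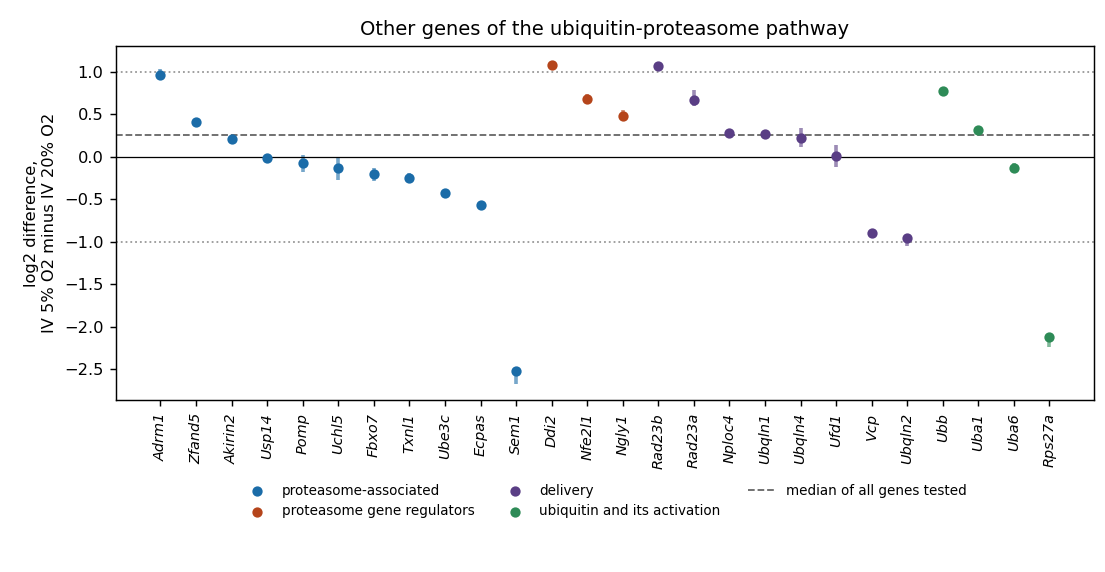
Difference on the log2(RPM + 1) scale (IV 5% O2 minus IV 20% O2) of 26 other genes of the ubiquitin-proteasome pathway, coloured by role, with bars for the exact 95% interval of the read ratio (counting error only), a dashed line at the median of all genes tested (0.26) and dotted lines at 2-fold. Ddi2 and Rad23b lie just above the upper dotted line, and Sem1 and Rps27a lie below the lower one.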

How the data were processed

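The authors aligned reads to mm10 with TopHat (the submitters' processing notes list TopHat2 2.0.9 and Trim Galore), quantified exons in SeqMonk and deposited the result as log2, with 1 pooled column per condition. The way in which libraries were pooled is not given in the sources used here. The methods describe a correction for length, but 99.93% and 99.98% of the deposited log2 values with reads are whole multiples (within 0.05 read) of 1 step that is the same for every gene, so the unit was taken to be log2 RPM with no such correction. Of the reads, 109629353 (82.9%) and 29754908 (72.8%) were counted on genes. The table also holds 1 value column that was not used, because its name matches no labelled sample.

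For a repeated gene name the row with the highest mean was used. Differences of log2(RPM + 1) were taken for the 14704 genes whose mean reached 1 RPM, and a gene was counted as apart at 2-fold. With 1 column per condition no test was run. Coordinates, lengths, overlaps and repeats come from the GENCODE annotation of GRCm38. Woolf intervals use the normal approximation to counting error at 95%. Every member may be named. Full values were given for the 5 highest and 5 lowest differences, the highest and lowest level per kb of each class, and the catalytic subunits, partners, activators, chaperones and Psmd14; of the other pathway genes, for those past 2-fold, Nfe2l1, Pomp and Adrm1, and, outside this rule, for Ngly1, Ubb, Vcp, Ubqln2 (the last pair chosen after their values were seen) and a few members beside them. Some genes of the pathway list are not reported here and were left out of its counts and median, whatever their values. The members and lists were chosen with earlier results of these data known. The alternatives were other pseudocounts, filters, scalings, row rules and lengths. The scripts ran in Python 3.11.15 with scipy 1.17.1 for intervals, pandas 2.3.3 and numpy 2.4.6 for tables, matplotlib 3.10.9 for figures and numba 0.67.0 for repeats, and were tested on simulated data.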

Additional observations from a re-analysis of the deposited data

How the results depend on the processing

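No paired analysis was possible because each condition has a single pooled column without replicate numbers, and the replicate block and leave-one-out were not run for that reason. In place of 2753 genes, 1202 were at least 2-fold higher with a pseudocount of 5, 1691 with a minimum of 5 RPM, 1700 after median-ratio scaling and 1764 after quantile normalization; in place of 1356, 706 were lower with a pseudocount of 5. Members at least 2-fold higher numbered 1 with median-ratio scaling and 2 with a pseudocount of 5, quantile normalization and scaling to reads on genes (without Psmd3), against 3, and members at least 2-fold lower numbered 2 with no filter, 3 with median-ratio scaling and 2 when scaled to reads on genes, against 1. The other pathway genes at least 2-fold higher numbered 0 with median-ratio scaling, quantile normalization and scaling to reads on genes, against 2, and those at least 2-fold lower numbered 4 with each of these, against 2. The median of the beta ring relative to all genes was -0.14 with no filter and reversed to 0.0836 with a minimum of 5 RPM, where that of the 20S chaperones reversed to 0.32, because these filters change which genes are tested (Psmb10 and Psmb11 of the beta ring, Psmg2 of the chaperones). The core sums reversed to -0.0163 and the activator sums to -0.11 with median-ratio scaling, and were 0.12 and 0.0194 when scaled to reads on genes, while the regulatory sums were 0.33 and 0.46; each of these scalings applies 1 factor per column. With the principal transcripts, a length chosen after the data were seen, the core range in IV 5% O2 was 9.43-fold and Psmb10 was at 1.29% of Psmb7 in IV 20% O2. The sign changed for 8 members with median-ratio scaling, 6 with reads on genes and 5 with quantile normalization, all with a difference under 2-fold. Of 550 values of single genes under the alternatives, 346 moved by no more than the longer side of their counting interval, and 204 moved further without a reversal of a 2-fold difference. Leaving out the 3 members with at least 10% repeated windows, also chosen after the data were seen, left 26 of 40 above the median gene. The lower depth of IV 20% O2 limits Psmb10, Psmb11 and Psmg2, with 55, 153 and 138 reads.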
